A study of Mus musculus with 15 samples.

Results

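Expression of 9 genes that bring glucose into the cell and commit it to glycolysis was described across 15 arrays of one mouse melanocyte line. They are the glucose transporters Slc2a1 and Slc2a3, the hexokinases Hk1 and Hk2, the phosphofructokinase subunits Pfkl, Pfkp and Pfkm, and the bifunctional enzymes Pfkfb3 and Pfkfb4. They were chosen by name as genes of these steps, with earlier results of these data known. All 9 were among the 22180 genes with a probe set annotated to exactly 1 symbol. Where a gene had several such probe sets, the brightest on average represented it. That concerned 1 member, Slc2a1, whose other probe set is described beside it. A further probe set is annotated to both Hk1 and its antisense transcript Hk1os and was not used.

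The cells were melan-Ink4a-Arf-1, an immortalized melanocyte line from mice homozygous for the Cdkn2a tm1RDp allele, so that all groups carry this altered tumour suppressor locus and represent 1 line. All cultures grew at 37 °C in RPMI medium with 10% fetal bovine serum, 200 nM 12-O-tetradecanoylphorbol 13-acetate and 200 pM cholera toxin. Normoxic cultures (3 arrays) had about 21% oxygen and 10% CO2. The other 4 groups of 3 arrays spent 24 h at 1% oxygen, 5% CO2 and 94% nitrogen, so the oxygen and CO2 differences cannot be told apart. A group labelled only as control in hypoxia is called the hypoxia control here, another is labelled negative control, and the labels do not say what either received. The groups Si1 and Si6 each received an siRNA against Hif1a, the oxygen-regulated subunit of a transcription factor that is stabilised in low oxygen, 24 h before hypoxia began. The series calls its samples biological triplicates, but nothing says how the cultures were kept apart, so p-values measure the spread between these samples. The comparisons address which of the 9 genes differ between hypoxia and normoxia, and which differ with siRNA against Hif1a within hypoxia. No siRNA group was kept in normoxia. A fall with an siRNA therefore cannot be split into a lost hypoxic response and lower expression unrelated to oxygen.

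Glucose crosses the plasma membrane through facilitative carriers of the Slc2a family, and a hexokinase then phosphorylates it and so traps it in the cell. Phosphofructokinase, a tetramer built from liver-type (Pfkl), platelet-type (Pfkp) and muscle-type (Pfkm) subunits, catalyses the committing step of glycolysis. The Pfkfb enzymes make and break down the sugar phosphate that most strongly activates it. Genes of all these steps are textbook targets of hypoxia-inducible factor in many cell types, since cells short of oxygen rely on glycolysis for ATP.

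Values are the authors' deposited log2 intensities. A ± after a level is the SD of 3 arrays, and a ± after a log2 change is limma's standard error. Adjusted p-values are limma's, adjusted by the Benjamini-Hochberg method across the 22180 genes in each comparison, and a gene is said to have risen or fallen when this value was under 0.05. The number of arrays limits the precision. Levels of different genes come from different probes and are not compared with each other. Arrays of a group are listed in the order of their letters a, b and c. In bulk RNA, fewer cells of a type and less RNA per cell cannot be told apart.

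Hif1a itself lay between 10.3 and 10.36 log2 units on the normoxia arrays, 10.54 and 10.63 in the hypoxia control, 10.56 and 10.68 in the negative control, 8.59 and 8.75 in Si1, and 8.90 and 8.98 in Si6. Each siRNA thus lowered its own target, with 25.3% of the negative control level left by Si1 and 30.7% by Si6 (adjusted p = 1.71e-12 and 1.84e-11). A dimmer Hif1a probe set averaged 5.40 and gave differences of -0.01 for Si1 and -0.07 for Si6 (adjusted p = 0.956 and 0.538 over the 23521 probe sets with 1 symbol). All 10 listed melanocyte markers were measured, with means between 8.46 (Kit) and 13.06 (Tyrp1). The markers of other cell types had means between 4.35 and 8.56 (fibroblast), 6.04 and 6.87 (keratinocyte), 5.45 and 6.52 (endothelial), 4.5 and 6.9 (leukocyte), and 4.92 and 7.36 (skeletal muscle). The file has no detection calls, so none of these was called absent.

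Most of the windows found around start sites of the members hold the short core letters that hypoxia-inducible factor is known to recognise. The sequences are RefSeq's (GRCm38.p6), from 250 bases before to 50 bases after a start site. The letters ACGTG and GCGTG, 5 bases each, were searched on both strands, and overlapping matches were counted separately. Windows were found for 8 members, and none was found for Slc2a3. At least 1 match lay in 11 of their 13 windows, against 43.8% of all 32841 windows searched, a comparison that takes no account of base composition. The windows are not all separate, since several belong to Pfkm and overlapping ones among these share a match. A match is a description of letters and not a binding site. A set of 4 windows is printed because it puts 3 genes that rose with hypoxia beside Pfkfb4, which did not pass that test. Capitals mark the matches, 2 each in Slc2a1 and Hk2 and 1 each in Pfkl and Pfkfb4.
Slc2a1 chr4:119108495-119108794 (plus strand): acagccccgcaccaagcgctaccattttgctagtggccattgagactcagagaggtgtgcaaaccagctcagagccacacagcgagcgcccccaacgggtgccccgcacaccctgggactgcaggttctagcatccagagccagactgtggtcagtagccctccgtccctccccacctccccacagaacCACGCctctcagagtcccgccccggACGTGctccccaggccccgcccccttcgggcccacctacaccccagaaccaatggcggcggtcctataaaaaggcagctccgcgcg
Hk2 chr6:82774405-82774704 (minus strand): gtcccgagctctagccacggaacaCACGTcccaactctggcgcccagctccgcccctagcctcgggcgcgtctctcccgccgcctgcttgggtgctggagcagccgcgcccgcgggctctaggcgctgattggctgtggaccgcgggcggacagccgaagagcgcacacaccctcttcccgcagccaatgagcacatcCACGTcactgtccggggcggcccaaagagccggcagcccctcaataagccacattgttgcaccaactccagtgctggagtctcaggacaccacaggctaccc
Pfkl chr10:78009758-78010057 (minus strand): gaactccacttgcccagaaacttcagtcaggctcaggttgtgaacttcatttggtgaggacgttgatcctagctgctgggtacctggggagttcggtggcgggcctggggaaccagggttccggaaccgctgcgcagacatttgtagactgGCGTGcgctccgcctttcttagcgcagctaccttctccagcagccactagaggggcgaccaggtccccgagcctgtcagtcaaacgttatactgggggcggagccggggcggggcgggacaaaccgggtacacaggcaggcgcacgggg
Pfkfb4 chr9:108991652-108991951 (plus strand): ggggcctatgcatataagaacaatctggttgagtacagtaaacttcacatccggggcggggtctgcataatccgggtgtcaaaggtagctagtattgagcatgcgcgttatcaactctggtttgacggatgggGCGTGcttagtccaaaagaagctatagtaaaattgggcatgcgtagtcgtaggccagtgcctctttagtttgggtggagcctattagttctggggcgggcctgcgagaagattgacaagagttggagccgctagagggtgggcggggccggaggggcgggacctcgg

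Both transporters, both hexokinases, the liver-type and platelet-type phosphofructokinase subunits and, by a small amount, Pfkfb3 rose in hypoxia. In the hypoxia control against normoxia, 7 of the 9 members rose and 0 fell, where 9.87% of all genes rose and 11.2% fell. The median log2 change of the members was 1.56, beside -0.002 over all genes. In the negative control, also hypoxic, the same comparison gave 7 higher and 0 lower, where 14.6% of all genes were higher and 15.7% lower, and a median of 1.63 beside -0.004. These comparisons share the normoxia arrays. Hk2 rose most among the members and held rank 11 of 22180 genes by the size of its rise in the hypoxia control, with Pfkl at rank 38, Pfkp at 40, Slc2a3 at 47 and Slc2a1 at 51.

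**Figure D1:**
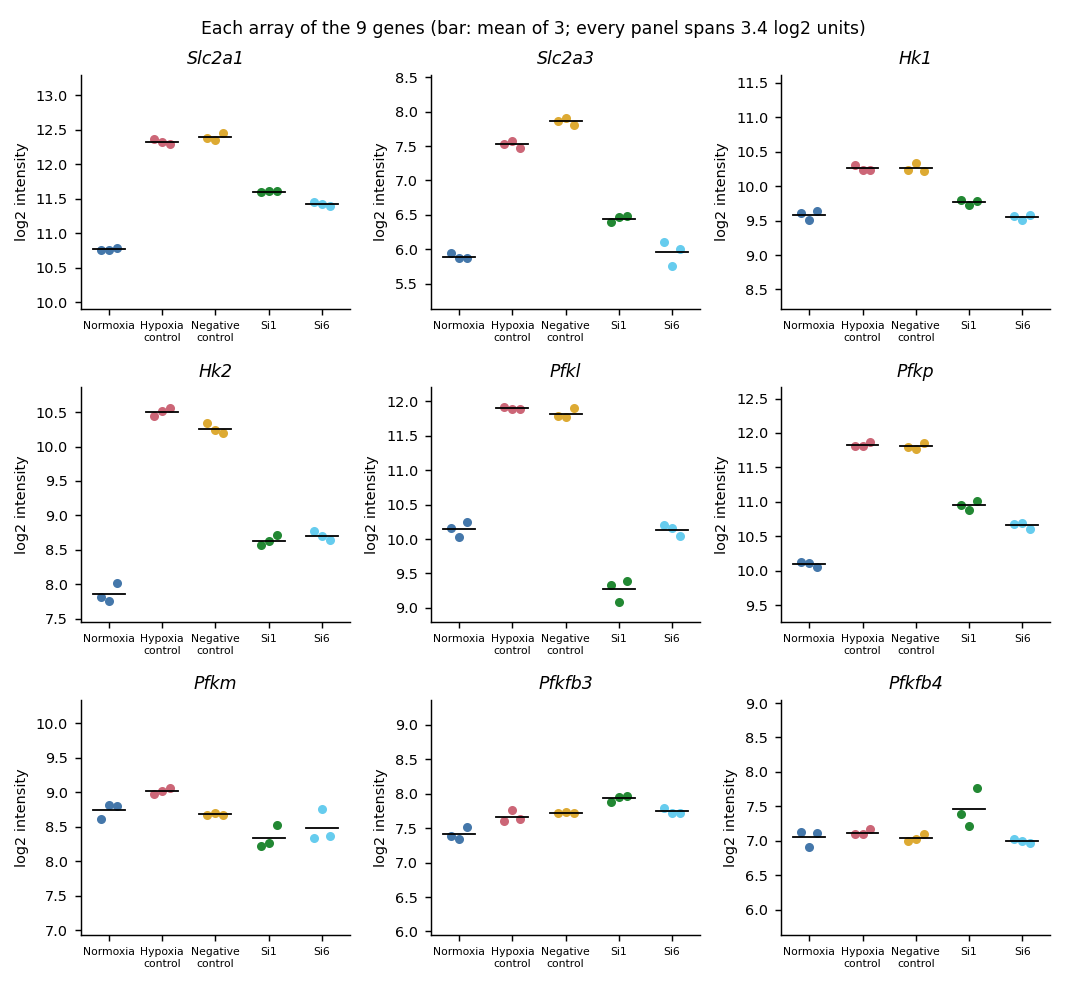
Log2 intensity of each member on each of the 15 arrays (points) with the mean of 3 arrays (bars), in 5 groups along the horizontal axis. Slc2a1, Slc2a3, Hk1, Hk2, Pfkl and Pfkp stand higher in both hypoxic controls than in normoxia, and lower in Si1 and Si6 than in those controls. Pfkm, Pfkfb3 and Pfkfb4 span a narrower range.

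With each siRNA, the same 6 members that carried the hypoxic rise fell. Against the negative control, Si1 lowered 7 members and raised 2, where 14.8% of all genes fell and 20.2% rose. Si6 lowered 6 and raised 0, where 11.9% of all genes fell and 17% rose. The median of the members was -0.79 in Si1 and -0.97 in Si6, beside -0.01 over all genes in each. Both comparisons share the negative control arrays. Pfkl in Si1 held rank 12 among all falls and Slc2a3 in Si6 rank 28.

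**Figure D2:**
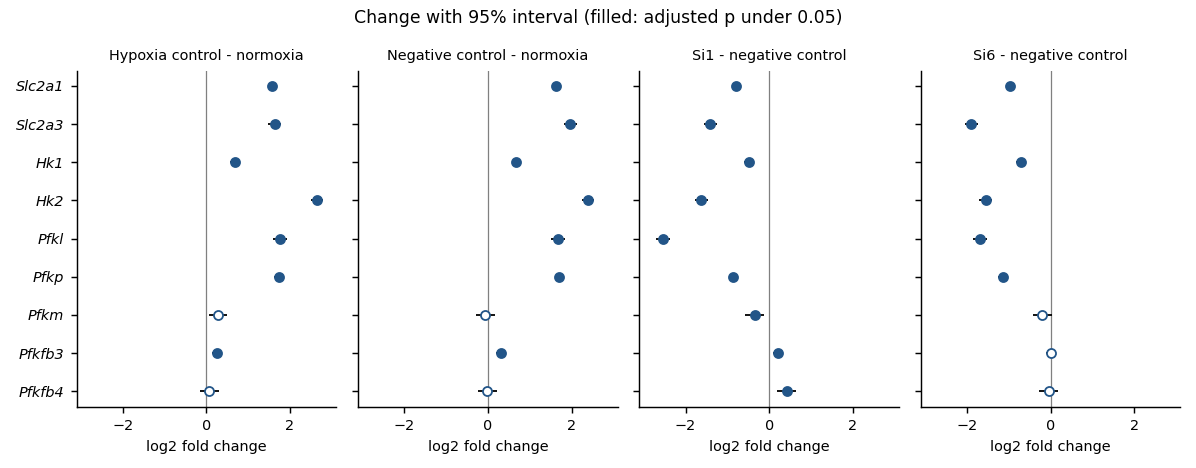
Log2 fold change of each member with its 95% interval in 4 comparisons, with filled points where the adjusted p was under 0.05. Hk2 shows the largest rise in both hypoxic controls (2.64 and 2.40) and Pfkl the largest fall with Si1 (-2.55), while Pfkfb3 and Pfkfb4 lie to the right of 0 in Si1.

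The main carrier of basal glucose uptake in most cells, Slc2a1 (GLUT1), was higher in every hypoxic array than in normoxia. Its normoxia arrays read 10.76, 10.76 and 10.78 log2 units, the hypoxia control 12.37, 12.32 and 12.3, and the negative control 12.38, 12.35 and 12.45. The Si1 arrays read 11.59, 11.61 and 11.61, and the Si6 arrays 11.46, 11.43 and 11.39. Normoxia, Si6, Si1 and the hypoxic controls formed 4 levels that did not overlap, and only the hypoxia control and the negative control overlapped. The rise in the hypoxia control was 1.56 ± 0.05 on the log2 scale, or 2.95-fold (adjusted p = 2.75e-12). Si1 left 57.8% and Si6 51.1% of the negative control level (adjusted p = 2.69e-09 and 7.15e-10). Both siRNA groups stayed above normoxia, by 0.84 ± 0.05 for Si1 and 0.66 ± 0.05 for Si6 (adjusted p = 8.72e-10 and 3.32e-08).

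The other Slc2a1 probe set was dim, with a mean of 5.54 against 11.7 for the one used. It read 5.42 ± 0.08 in normoxia and 5.62 ± 0.09 in the hypoxia control, and the difference of 0.20 did not pass the test (adjusted p = 0.243 over the 23521 probe sets). Its changes with Si1 and Si6 were -0.13 and -0.08 (adjusted p = 0.42 and 0.668). When both probe sets were averaged, the rise was 0.88 and the difference between the siRNAs, which passed the test with the brighter probe set (0.18 ± 0.05, adjusted p = 0.00857), no longer did (0.06, adjusted p = 0.563).

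Slc2a3 (GLUT3), a carrier with high affinity for glucose that is best known from neurons, rose in hypoxia and fell with each siRNA, most with Si6. The normoxia arrays read 5.94, 5.87 and 5.87, the hypoxia control 7.54, 7.57 and 7.48, and the negative control 7.87, 7.91 and 7.8. Si1 read 6.39, 6.46 and 6.48, and Si6 read 6.11, 5.77 and 6.01. Normoxia and Si6 overlapped, Si1 lay above both, and the negative control lay above the hypoxia control on every array. Slc2a3 rose by 1.63 ± 0.07 in the hypoxia control (adjusted p = 3.88e-10), and the negative control was higher by a further 0.33 ± 0.07 (adjusted p = 0.00503). Si1 left 37.5% and Si6 26.8% of the negative control level (adjusted p = 6.11e-10 and 7.76e-11). Against normoxia the difference was 0.55 ± 0.07 in Si1 (adjusted p = 1.39e-05) and 0.07 ± 0.07 in Si6 (adjusted p = 0.57, 95% interval -0.09 to 0.22). The normoxia and Si6 values of Slc2a3 lay below the median of every array (6.52 to 6.61). The deposited values do not give the background, which limits what the likeness of these levels can mean. The second Si6 array lay below every normoxia array and the other two above, and without the second the Si6 difference was 0.16 (adjusted p = 0.065).

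Hexokinases phosphorylate glucose on entry, and the isoforms responded by unequal amounts. Hk1, the form found in most tissues, read 9.6, 9.51 and 9.63 in normoxia, 10.31, 10.23 and 10.24 in the hypoxia control and 10.24, 10.34 and 10.22 in the negative control. It read 9.8, 9.73 and 9.78 in Si1 and 9.57, 9.5 and 9.58 in Si6. The hypoxic controls overlapped with each other and with no other group, and Si6 overlapped with normoxia. The rise was 0.68 ± 0.05, or 1.60-fold (adjusted p = 2.4e-07). Si1 left 71.0% and Si6 61.0% of the negative control level (adjusted p = 2.04e-06 and 8.42e-08). Si1 stayed above normoxia by 0.19 ± 0.05 (adjusted p = 0.0105), and that call was lost without the second normoxia array (0.15, adjusted p = 0.058). Si6 was at -0.03 ± 0.05 against normoxia (adjusted p = 0.738).

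Hk2, the isoform typical of muscle, fat and many tumours, had the largest hypoxic rise of the 9. The normoxia arrays read 7.81, 7.76 and 8.02, the hypoxia control 10.44, 10.51 and 10.56, and the negative control 10.34, 10.24 and 10.2. Si1 read 8.56, 8.62 and 8.72 and Si6 read 8.78, 8.69 and 8.65. The siRNA groups overlapped with each other and lay between normoxia and the hypoxic controls. The rise was 2.64 ± 0.07 in the hypoxia control, or 6.23-fold (adjusted p = 1.15e-12), and 2.40 ± 0.07 in the negative control, or 5.26-fold (adjusted p = 2.5e-12). Si1 left 32.4% and Si6 34.1% of the negative control level (adjusted p = 1.34e-10 and 5.33e-10). Both stayed above normoxia, by 0.77 ± 0.07 and 0.84 ± 0.07 (adjusted p = 2.88e-07 and 2.38e-07). The difference between the siRNAs was -0.07 ± 0.07, with a 95% interval from -0.23 to 0.08 (adjusted p = 0.555).

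Phosphofructokinase was read through its 3 subunit genes, which parted in their response. Pfkl, the liver-type subunit, read 10.15, 10.03 and 10.25 in normoxia, 11.91, 11.89 and 11.89 in the hypoxia control and 11.78, 11.77 and 11.9 in the negative control. Si1 read 9.33, 9.09 and 9.39, below every normoxia array, and Si6 read 10.2, 10.16 and 10.04, within the normoxia range. Pfkl rose by 1.75 ± 0.08, or 3.37-fold, in the hypoxia control (adjusted p = 4.14e-10). Si1 left 17.1% of the negative control level (-2.55 ± 0.08, adjusted p = 4.48e-12) and Si6 left 31.1% (-1.68 ± 0.08, adjusted p = 5.64e-10). Against normoxia, Si1 was lower by 0.88 on the log2 scale (-0.88 ± 0.08, adjusted p = 2e-07), whereas Si6 was at -0.01 ± 0.08 (adjusted p = 0.945, 95% interval -0.18 to 0.16).

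Pfkp, the platelet-type subunit, had a hypoxic rise close to that of Pfkl and, unlike Pfkl, stood above normoxia with each siRNA. It read 10.13, 10.11 and 10.06 in normoxia, 11.8, 11.81 and 11.86 in the hypoxia control and 11.8, 11.77 and 11.85 in the negative control. Si1 read 10.95, 10.87 and 11.02, and Si6 read 10.68, 10.69 and 10.61. The 5 groups formed 4 levels, with overlap only between the hypoxic controls. Pfkp rose by 1.73 ± 0.05, or 3.31-fold (adjusted p = 2.92e-12). Si1 left 55.2% and Si6 45.1% of the negative control level (adjusted p = 3.62e-09 and 4.16e-10), and both stayed above normoxia, by 0.85 ± 0.05 and 0.56 ± 0.05 (adjusted p = 2.38e-09 and 5.88e-07).

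Pfkm, the muscle-type subunit, moved little. It read 8.61, 8.81 and 8.8 in normoxia, 8.98, 9.02 and 9.06 in the hypoxia control and 8.67, 8.7 and 8.67 in the negative control. Si1 read 8.22, 8.26 and 8.52, and Si6 read 8.33, 8.76 and 8.36. The hypoxia control lay above every other group, and normoxia overlapped with the negative control and with Si6. The hypoxia control differed from normoxia by 0.28 ± 0.10 (adjusted p = 0.0711) and the negative control by -0.06 ± 0.10 (adjusted p = 0.736), so the hypoxic groups did not give 1 answer. The first value passed the test after another quantile normalization (0.31, adjusted p = 0.0242) and when only the 2 groups compared were fitted (adjusted p = 0.0236). It also passed without the third Si1 array (adjusted p = 0.0481) or the second Si6 array (adjusted p = 0.0171). Those arrays are not in this comparison, but the fit of all groups shares 1 estimate of spread per gene.

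With Si1, Pfkm fell against the negative control by 0.35 on the log2 scale (-0.35 ± 0.10, adjusted p = 0.014), and that call was lost without the first Si1 array (-0.29, adjusted p = 0.0667) or the second (-0.31, adjusted p = 0.0556). With Si6 the value was -0.2 ± 0.10 (adjusted p = 0.189). The second Si6 array, at 8.76, stood above the other two, and without it the value was -0.33 (adjusted p = 0.00899). Against normoxia, Pfkm was at -0.41 ± 0.10 in Si1 (adjusted p = 0.00436) and -0.26 ± 0.10 in Si6 (adjusted p = 0.0764), and the latter was -0.39 without that array (adjusted p = 0.00275).

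The bifunctional enzymes set the level of the activator of phosphofructokinase, and their mRNAs moved by at most 0.51 log2 units in the 8 comparisons made. Pfkfb3, whose kinase activity greatly exceeds its phosphatase activity, read 7.38, 7.35 and 7.52 in normoxia, 7.61, 7.76 and 7.64 in the hypoxia control and 7.72, 7.73 and 7.73 in the negative control. It read 7.88, 7.95 and 7.96 in Si1 and 7.79, 7.72 and 7.71 in Si6. Normoxia lay below all other groups, and Si1 above all. The hypoxic rise was 0.25 ± 0.06, or 1.19-fold (adjusted p = 0.00454), and 0.31 ± 0.06 in the negative control (adjusted p = 0.000556). Si1 was higher than the negative control by 0.21 ± 0.06 (adjusted p = 0.00999), and Si6 differed by 0.02 ± 0.06 (adjusted p = 0.886, 95% interval -0.11 to 0.14).

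Pfkfb4, first known from testis, did not pass the test for hypoxia. It read 7.13, 6.91 and 7.11 in normoxia, 7.09, 7.1 and 7.17 in the hypoxia control and 7.0, 7.03 and 7.1 in the negative control. Si1 read 7.38, 7.22 and 7.77, above every other array, and Si6 read 7.02, 7.0 and 6.97. The hypoxia control differed from normoxia by 0.07 ± 0.10 (adjusted p = 0.736, 95% interval -0.15 to 0.29) and the negative control by -0.01 ± 0.10 (adjusted p = 0.971, 95% interval -0.23 to 0.21). Si1 was higher than the negative control by 0.41 ± 0.10 (adjusted p = 0.00496) and than Si6 by 0.46 ± 0.10 (adjusted p = 0.00301). The third Si1 array carried much of this, as without it these values were 0.26 (adjusted p = 0.0147) and 0.30 (adjusted p = 0.00656), and the rise over normoxia of 0.41 became 0.25 (adjusted p = 0.0154).

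The siRNAs differed from each other in 7 of the 9 members, 6 higher and 1 lower in Si1, where 14.5% of all genes were higher and 13.4% lower. Pfkl was the one lower in Si1, by 0.86 on the log2 scale (-0.86 ± 0.08, adjusted p = 5.76e-07). Slc2a3 was higher in Si1 by 0.48 ± 0.07 (adjusted p = 9.22e-05), Pfkp by 0.29 ± 0.05 (adjusted p = 0.000409), Hk1 by 0.22 ± 0.05 (adjusted p = 0.00569) and Pfkfb3 by 0.19 ± 0.06 (adjusted p = 0.0208). The Pfkfb3 call was lost without the second or the third array of either siRNA group (adjusted p = 0.0595 and 0.068 for Si1, 0.0689 and 0.0695 for Si6). Hk2 and Pfkm did not pass this test. Hif1a was lower in Si1 than in Si6 by 0.28 on the log2 scale (-0.28 ± 0.06, adjusted p = 0.00118), and all 10 melanocyte markers were lower in Si1 too. The log2 of their summed intensity was 14.65 to 14.73 in Si1, 15.1 to 15.17 in Si6, 14.82 to 14.91 in the negative control, 15.26 to 15.3 in the hypoxia control and 15.52 to 15.56 in normoxia. The part of these shifts in the members' differences was not tested.

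Against normoxia, all 9 members differed in Si1 and 4 in Si6. In Si1, 7 members were higher and 2 lower, where 21.7% of all genes were higher and 17.4% lower. In Si6, 4 were higher (Slc2a1, Hk2, Pfkp and Pfkfb3) and 0 lower, where 17% of all genes were higher and 13.1% lower. The median of the members was 0.51 in Si1 and 0.07 in Si6, beside -0.02 over all genes in each. Slc2a1, Hk2 and Pfkp were thus above normoxia with each siRNA, though lower than in the negative control.

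The hypoxic controls differed from each other in 3 members, 1 higher and 2 lower in the negative control, where 7.8% of all genes were higher and 7.51% lower. Besides Slc2a3, these were Hk2 (-0.24 ± 0.07, adjusted p = 0.0302) and Pfkm (-0.34 ± 0.10, adjusted p = 0.0369). Neither of these held when single arrays were left out. The Hk2 call was lost without the second or the third array of the hypoxia control or of the negative control (adjusted p = 0.0841 and 0.115, 0.089 and 0.105). The Pfkm call was lost without any 1 of the 6 arrays (adjusted p = 0.0677, 0.0922 and 0.112 for the hypoxia control and 0.0952, 0.0787 and 0.0846 for the negative control). Of the melanocyte markers, 9 of 10 were lower in the negative control than in the hypoxia control, and their part in these differences was not tested.

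Isoforms of 1 step were compared within arrays, as the log2 intensity of one minus that of the other. Only the change of this difference between groups is read, since probes differ in brightness. For 6 pairs, the 6 arrays of both hypoxic controls were set against the 3 normoxia arrays, and the 6 arrays of both siRNAs against the 3 negative control arrays. These 12 two-sided exact permutation tests can reach no p below 0.0238, and p-values were adjusted over the 12. With 3 arrays against 3 the smallest p is 0.1, so single groups are given without a test. Each set of 6 arrays pools groups that were treated differently, so its p is for neither group alone. In all, 9 of the 12 changes passed at adjusted p = 0.0318. Each of these was at the smallest p, which is reached only where the arrays do not overlap. The tests share genes and arrays, so they are not separate, and other pairs of genes were not tested for comparison.

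The hexokinases shifted toward Hk2 in hypoxia. Hk2 minus Hk1 was -1.72 ± 0.09 in normoxia (SD, n = 3), 0.24 ± 0.10 in the hypoxia control and -0.005 ± 0.10 in the negative control, a change of 1.84 or 3.57-fold over both (exact permutation p = 0.0238). With the siRNAs it was -1.14 ± 0.09 in Si1 and -0.85 ± 0.08 in Si6, a change of -0.99 from the negative control (exact permutation p = 0.0238). The siRNA arrays thus lay between normoxia and the hypoxic controls, with no overlap with either.

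Among phosphofructokinase subunits, Pfkl and Pfkp both gained on Pfkm in hypoxia, and parted from each other only with the siRNAs. Pfkl minus Pfkm changed by 1.60 with hypoxia and by -1.84 with the siRNAs, and Pfkp minus Pfkm by 1.61 and -0.73 (exact permutation p = 0.0238 for each). Pfkl minus Pfkp was 0.05 ± 0.14 in normoxia, 0.07 ± 0.04 in the hypoxia control and 0.01 ± 0.03 in the negative control, a change of -0.01 (exact permutation p = 0.905). In Si1 it was -1.68 ± 0.09 and in Si6 -0.52 ± 0.04. The change pooled over both was -1.11 (exact permutation p = 0.0238), a value that neither siRNA group showed by itself. The siRNA groups differ in size here, with -1.69 for Si1 and -0.53 for Si6, each against the negative control.

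Slc2a1 minus Slc2a3 changed by -0.2 with hypoxia, with overlapping arrays (exact permutation p = 0.0714, adjusted p = 0.0857), and by 0.78 with the siRNAs (exact permutation p = 0.0238). Slc2a3 therefore lost more than Slc2a1 under the siRNAs on the log2 scale. Pfkfb3 minus Pfkfb4 changed by 0.25 with hypoxia (exact permutation p = 0.0238) and by -0.07 with the siRNAs (exact permutation p = 0.833).

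**Figure D3:**
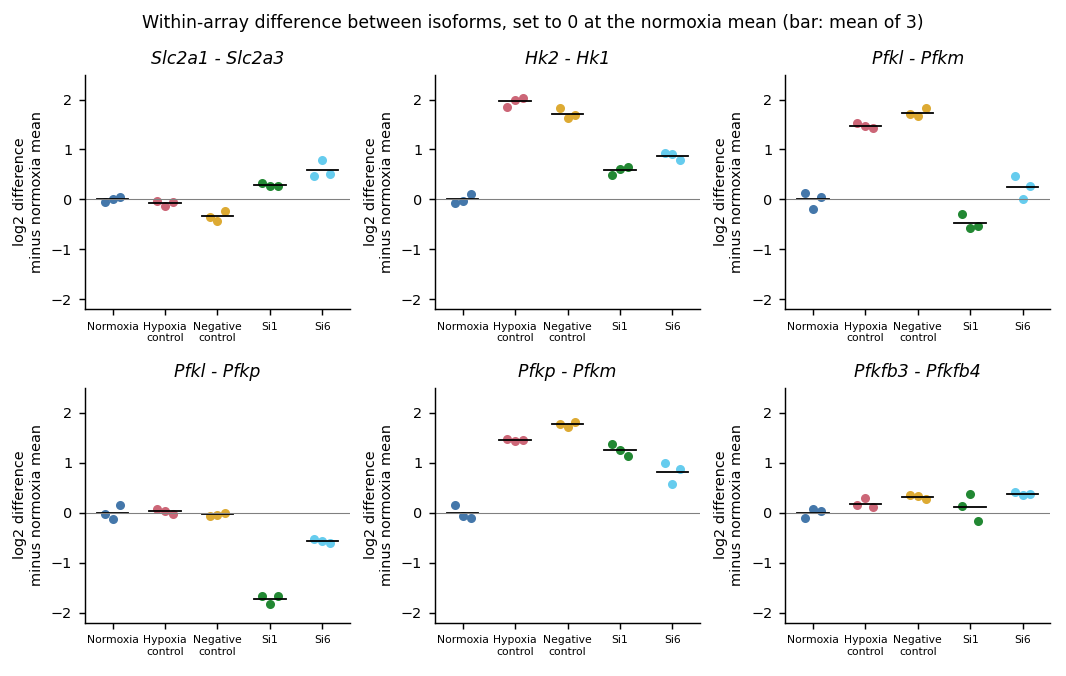
Within-array log2 difference between isoforms on each of the 15 arrays (points) and mean of 3 (bars), in 5 groups, set to 0 at the normoxia mean. The pair Hk2 and Hk1 rises by about 2 in the hypoxia control (1.96) and the pair Pfkl and Pfkp stays near 0 in both hypoxic controls and falls in Si1 and Si6.

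Other carriers and enzymes of the same or related steps were listed by family or function. Of 11 other carriers of the Slc2a and Slc5a families, some known for cargo other than glucose, 1 rose in the hypoxia control and 0 fell. These counts were near the 9.87% and 11.2% of all genes. In the negative control, 1 rose and 1 fell against normoxia, where 14.6% of all genes rose and 15.7% fell. The one that rose in each was the fructose carrier Slc2a5 (0.29 ± 0.07 and 0.60 ± 0.07, adjusted p = 0.0041 and 3.17e-06). Si1 raised 3, of which Slc2a6, a lysosomal carrier, changed most (0.65 ± 0.07, adjusted p = 1.29e-06), and lowered 0. Si6 raised 1, Slc2a9 (0.32 ± 0.09, adjusted p = 0.0109), a urate carrier, and lowered 1, Slc2a5 (-0.57 ± 0.07, adjusted p = 7.08e-06). Slc2a9 also rose in Si1 (0.43 ± 0.09, adjusted p = 0.00093). Over all genes, Si1 raised 20.2% and lowered 14.8%, and Si6 raised 17% and lowered 11.9%.

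Of 6 measured genes of hexose phosphorylation and its regulation, limma called 0 in the hypoxia control, with 1 (Hkdc1) at an unadjusted p under 0.05, where 21% of all genes were called in either direction. In the negative control, 2 rose against normoxia and 0 fell, where 14.6% of all genes rose and 15.7% fell. The 2 were Hkdc1 (0.20 ± 0.07, adjusted p = 0.0363) and Txnip (0.17 ± 0.05, adjusted p = 0.0235). Against the negative control, Si1 raised 2 and lowered 2, and Si6 raised 1 and lowered 3, beside the same shares of all genes as for the carriers. Txnip, an arrestin-like protein that restrains glucose uptake, fell by 1.19 for Si1 and by 1.26 for Si6 on the log2 scale (adjusted p = 1.18e-10 and 1.66e-10), from 11.8 ± 0.02 (SD, n = 3) in the negative control. Its relative Arrdc4 fell by 0.90 and by 0.63 (adjusted p = 9.14e-08 and 7.07e-06). Adpgk, which phosphorylates glucose with ADP instead of ATP, rose by 0.81 and 0.35 (adjusted p = 3.31e-08 and 0.000296). Hkdc1 was higher in Si1 (0.27 ± 0.07, adjusted p = 0.00563) and lower in Si6 (-0.2 ± 0.07, adjusted p = 0.0397).

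Of 4 measured genes that oppose phosphofructokinase or belong to the Pfkfb family, Tigar and Fbp1 changed in each hypoxic control and with each siRNA. In the hypoxia control 1 rose and 1 fell, where 9.87% of all genes rose and 11.2% fell. In the negative control 2 rose and 2 fell against normoxia, where 14.6% of all genes rose and 15.7% fell. Against the negative control, Si1 raised 1 and lowered 1, where 20.2% of all genes rose and 14.8% fell. Si6 raised 1 and lowered 2, where 17% rose and 11.9% fell. Tigar, a phosphatase that lowers the activator of phosphofructokinase, fell by 0.29 in the hypoxia control (adjusted p = 0.00419) and rose by 0.68 for Si1 and 0.35 for Si6 (adjusted p = 4.64e-07 and 0.000557). Fbp1, a gluconeogenic bisphosphatase, was dim, with a mean of 5.90 over all arrays. It rose by 0.62 in the hypoxia control (adjusted p = 2.25e-05) and fell by 0.39 for Si1 and by 0.27 for Si6 (adjusted p = 0.000724 and 0.0123). Pfkfb2 was at -0.07 ± 0.06 in the hypoxia control (adjusted p = 0.493) and fell in the negative control (-0.27 ± 0.06, adjusted p = 0.00181), each against normoxia. The bisphosphatase Fbp2 was at 0.05 ± 0.08 (adjusted p = 0.749) and rose by 0.24 ± 0.08 (adjusted p = 0.0451) in the same comparisons.

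Of 11 measured enzymes further down the pathway, 8 rose in the hypoxia control and 0 fell, with a median of 0.91, where 9.87% of all genes rose and 11.2% fell. In the negative control, 7 rose and 0 fell, where 14.6% and 15.7% did. Si1 lowered 6 and raised 3, where 14.8% of all genes fell and 20.2% rose, so the number raised was near the share of all genes. Si6 lowered 7 and raised 0, where 11.9% fell and 17% rose. The 3 higher in Si1 were the enolases Eno2 and Eno3 and the lactate dehydrogenase subunit Ldhb. The aldolase Aldoc rose by 1.39 ± 0.10 in the hypoxia control and fell by 2.13 for Si1 and by 1.48 for Si6 (adjusted p = 7.15e-08, 1.84e-10 and 1.91e-08). As with Pfkl, its level was lower in Si1 than in Si6 (-0.64 ± 0.10, adjusted p = 8.96e-05). Gapdh, at 12.5 to 12.6 in every group mean, did not pass the test in the hypoxia control (0.07 ± 0.05, adjusted p = 0.322) or with either siRNA (adjusted p = 0.648 and 1).

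**Figure D4:**
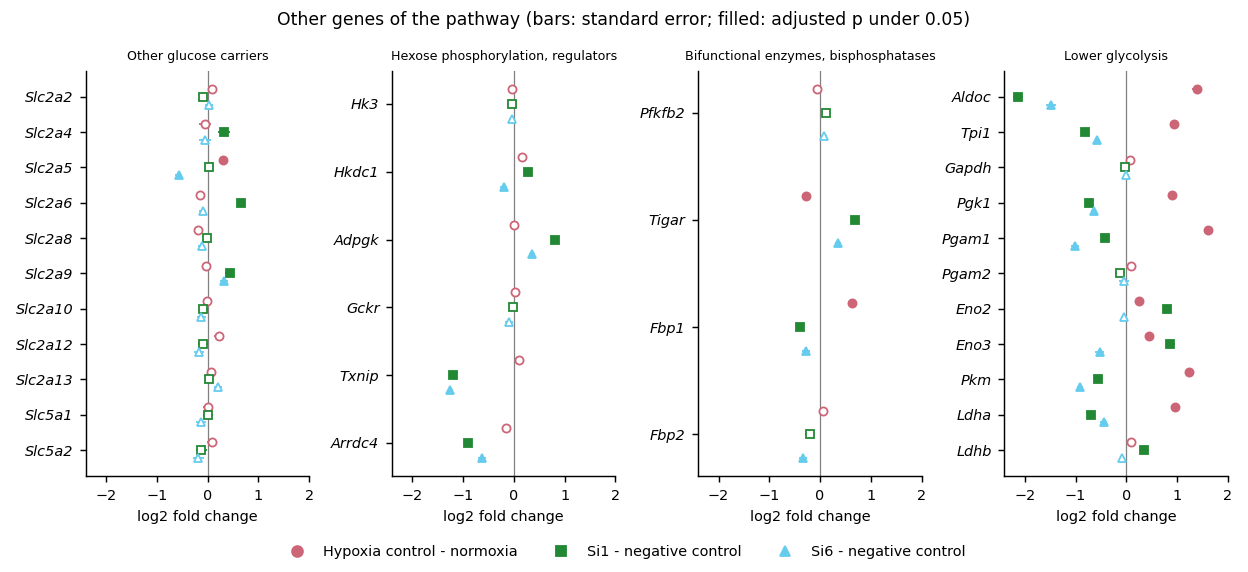
Log2 fold change with its standard error for 32 other genes of the pathway in 4 panels by function, for the hypoxia control against normoxia (circles) and Si1 (squares) and Si6 (triangles) against the negative control, filled where the adjusted p was under 0.05. Lower glycolysis enzymes such as Aldoc stand right of 0 with hypoxia and left of 0 with the siRNAs, while Txnip moves only with the siRNAs among the comparisons plotted.

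Over the 15 arrays, Pearson correlations between members were described without a test, since the 5 groups set most of the spread. Slc2a1 and Pfkp followed each other at 0.993, Slc2a3 and Hk1 at 0.983 and Hk2 and Pfkp at 0.976. Pfkl stood at 0.747 with Slc2a1 and 0.771 with Pfkp. Pfkm correlated best with Pfkl (0.729), and Pfkfb3 with Pfkfb4 (0.561). Genes most like each member were then sought, leaving out the members and symbols such as Gm plus digits, Rik, LOC or accession-like names. Among the rest, the best matches by this measure were Clybl for Slc2a1 (0.997) and Pfkp (0.995), and the integrin Itga6 for Slc2a3 (0.993). For Hk1 it was Plekha2 (0.985), for Hk2 the angiogenic factor Vegfa (0.992) and for Pfkl the histone demethylase Kdm4b (0.992). The best matches of Pfkm (Ubn2, 0.934), Pfkfb3 (the adenylate kinase Ak1, 0.967) and Pfkfb4 (Tex52, 0.932) were weaker.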

How the data were processed

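Gene expression was measured with one-colour Affymetrix arrays of biotinylated cRNA, per the labels' protocols. The authors deposited log2 values for 41345 probe sets on 15 arrays. The submitters' processing notes name RMA and Partek but give no settings. No filter, batch handling or genome build is stated there. Normalization between arrays hides a change of all genes together. Array medians lay between 6.52 and 6.61, and arrays of a group correlated at 0.993 to 0.996.

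Gene symbols came from the platform's annotation table, with exactly 1 symbol for 23521 probe sets, several for 1814 and none for 16010. Entrez identifiers of 23328 were found in RefSeq (GRCm38.p6), and 0 symbols changed. A limma model (version 3.58.1, R 4.3.3) with a mean for each of the 5 groups, without covariates, was fitted to the deposited log2 values and tested on simulated data. Isoform differences used exact permutation tests in scipy 1.17.1. Alternatives were other normalizations, filters, variance models, probe set means, array weights, a replicate block and leaving out each array.

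The members and lists were chosen with earlier results of these data known. All members, the siRNA target, listed pathway genes and, for each member, the 2 genes with the highest correlation could be named. That search for correlated genes left out the members and symbols such as Gm plus digits, Rik, LOC or accession-like names. Groups share the letters a to c, but same-lettered arrays did not deviate together (median correlation -0.002 over 30 pairs), so letters were not taken as pairs.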

Additional observations from a re-analysis of the deposited data

How the results depend on the processing

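In 1792 recomputed changes of single members over 10 alternative settings and 15 left-out arrays, 1758 kept their call, 19 lost it, 15 gained it and 0 reversed, and 24 of the changed calls were of Pfkm. Leaving out the lowest 50% of genes by mean level removed Slc2a3 and left 8 members. With the replicate block, the members called were 7 for each hypoxic control against normoxia, 3 between the hypoxic controls, 9, 6 and 7 for Si1 and Si6 against the negative control and for Si1 against Si6, and 9 and 4 for Si1 and Si6 against normoxia, and the call was the same for all 72 member changes. The labels do not say that shared letters pair arrays, and 4 of 15 arrays correlated best with their own letter. Leaving out 1 array gave 1 to 3 members called between the hypoxic controls. The change of Slc2a1 minus Slc2a3 with hypoxia passed the exact permutation test after another quantile normalization (-0.23) and with the mean of the Slc2a1 probe sets (-0.90). Leaving out an array of the group of 3 raised the smallest p of an isoform test to 0.0714, so none could pass. Over all arrays left out in turn, the values ran from 1.80 to 1.89 (Hk2 minus Hk1), 1.51 to 1.67 (Pfkl minus Pfkm), 1.56 to 1.69 (Pfkp minus Pfkm) and 0.19 to 0.29 (Pfkfb3 minus Pfkfb4) with hypoxia. With the siRNAs they ran from 0.71 to 0.83 (Slc2a1 minus Slc2a3), -1.03 to -0.93 (Hk2 minus Hk1), -1.96 to -1.75 (Pfkl minus Pfkm), -1.24 to -0.97 (Pfkl minus Pfkp) and -0.80 to -0.64 (Pfkp minus Pfkm). Changes of dim genes such as Slc2a3 are limited by signal over background, which the deposited values do not give.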
